A study of Mus musculus with 17 samples.

Results

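The genes that prepare and start DNA replication were followed in the colonic mucosa of mice during dextran sodium sulfate (DSS) colitis. The group held 10 genes chosen by name, namely Mcm2, Mcm3, Mcm4, Mcm5, Mcm6, Mcm7, Mcm10, Pcna, Cdc6 and Cdt1, out of 18193 genes that the array measures with a probe set of a single gene. A probe set is a group of short probes designed to read a transcript, though 932 of those on the array carry several genes. There were 27 probe sets for these genes among the 45037 tested, and for each gene the probe set with the highest mean stood for the gene. All 10 of these were above the background level of the arrays in each of the 17 samples. Of the other 17 probe sets, 11 were above background in every sample and 6 in none. No gene of the group was left out by a filter.

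A cell licenses its DNA before it copies it. At each origin of replication the origin recognition complex recruits Cdc6 and Cdt1, which together load the ring of Mcm2, Mcm3, Mcm4, Mcm5, Mcm6 and Mcm7 onto the DNA in an inactive form, and geminin holds Cdt1 back once replication has begun. The kinases Cdc7 and Cdk2 then turn the ring into the active helicase together with Cdc45 and the GINS complex, a step in which Mcm10 takes part, and Pcna is the sliding clamp that keeps the polymerases on the new strand. Many of these genes are transcribed under E2F factors as a cell commits to division, and in the colon the dividing cells lie in the lower part of the crypts.

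The samples were colonic mucosa of CD4cre mice and of WT mice, both on a C57BL/6J background, taken before and on days 2 and 7 of drinking 2.5% DSS, which injures the epithelium, where day 0 means no DSS. CD4cre mice were PPAR γ fl/fl and CD4Cre+, with Cre under the CD4 promoter, so that the nuclear receptor PPAR γ is lost from CD4+ and CD8+ T cells, and the study's methods describe the WT mice as lacking Cre. There were 3 samples in each of the 6 groups of genotype and day, except for WT on day 7 with 2. Ages were not given in the sources used here, and the sources do not say if each array stands for a single animal, so the p-values measure the spread between these samples, which may be technical. The comparisons asked how the genes moved over the DSS challenge within a genotype and how the genotypes differed on each day.

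RNA was read on Affymetrix mouse expression arrays. The values are gcRMA values on the log2 scale, between 0.76 and 16.47, and the background level of 3.38 was the 95th percentile of genes of other tissues. Between-sample SD within a group, as a root mean square over probe sets, ranged from 0.22 in WT on day 7 to 0.51 in CD4cre on day 7, and the number of arrays limits the precision. In CD4cre on day 7, replicate 2 stood apart, with a Pearson correlation over probe sets of 0.953 and 0.949 with replicates 1 and 3, against 0.982 between those. Transcripts of pancreatic enzymes had a median above 8 in 3 samples, namely replicate 2 of CD4cre on day 0, replicate 1 of CD4cre on day 2 and replicate 2 of WT on day 2. The Hox score subtracts the mean of the anterior Hox groups 1 to 8 from that of the posterior groups 9 to 13, whose expression differs along the gut. It was 1.36, 1.31 and 1.17 in WT on day 2, against 0.05, 0.70 and 0.05 in WT on day 0. All 16 markers of colon epithelium were above background in every sample, whereas of 11 measured T cell markers only 3 had a mean above it (Cd3d 3.54, Cd4 3.49 and Cd8a 4.31) and Cd3e, at 2.20, was above it in no sample. Pparg, deleted in T cells only, ranged from 8.28 to 10.62 in CD4cre and from 9.18 to 11.21 in WT, which does not check the labels. In mucosal RNA, fewer cells of a type and less RNA per cell cannot be told apart.

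Promoter sequence was read for these genes because E2F factors are known to act at several of them. RefSeq windows of 300 bases around the transcription start (GRCm38.p6) were at hand for 9 of the 10 genes, all but Mcm4. An E2F-type motif, spelled TTTGGCGC, TTTCGCGC, TTTCCCGC or TTTGCCGC on either strand, was in the window of 6 of the 9 (Mcm3, Mcm5, Mcm6, Mcm7, Cdc6 and Cdt1), against 2.6% of 27025 genes. CCAAT, searched on both strands, was in 7 of the 9, against 41.1% of genes, and the E-box CACGTG in none of the 9, against 8.1%. In Mcm6 and Mcm5 matches on opposite strands overlapped, and these stretches are shown for that reason, with the overlapping matches in capitals. The Mcm6 stretch is chr1:128359756-128359875 on the minus strand, 170 to 51 bases before the start, and the Mcm5 stretch is chr8:75109309-75109408 on the plus strand, 200 to 101 bases before the start.
Mcm6: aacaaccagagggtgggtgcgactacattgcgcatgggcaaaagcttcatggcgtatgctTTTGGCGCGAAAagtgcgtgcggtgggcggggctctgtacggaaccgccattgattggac
Mcm5: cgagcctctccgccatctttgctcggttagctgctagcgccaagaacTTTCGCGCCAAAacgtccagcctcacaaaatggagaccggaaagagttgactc
A match of letters is a description and no evidence of binding in these samples.

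In WT mice on day 2 of DSS all 10 genes had lower means than on day 0, with log2 fold changes between -1.12 and -0.33 and a median of -0.62, against -0.01 over the 22762 probe sets with a mean above background, whose 5th to 95th percentile ran from -0.62 to 0.67. Means were lower in 67.6% of all probe sets and in 51.9% of those above background. No gene of the group passed an adjusted p under 0.05 in limma, where 0.449% of all probe sets did. At an unadjusted p under 0.05, 7 of the 10 were lower (Mcm3, Mcm4, Mcm6, Mcm7, Mcm10, Cdc6 and Cdt1) and none was higher, against 4.94% of all probe sets that were lower and 8.04% of those above background. The 2 groups of 3 samples did not overlap for 9 of the 10, all but Mcm2, against 10.2% of all probe sets that were lower without overlap and 13.1% of those above background.

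Of the ring subunits, Mcm7 had the largest difference on WT day 2. It stood at 9.31, 9.68 and 9.41 on day 2, against 10.47, 10.37 and 10.72 on day 0, so that its highest day 2 sample was below its lowest day 0 sample. Its log2 fold change was -1.06 (adjusted p = 0.101 in limma, SE 0.25), a 2.08-fold lower level. Mcm3 was at 7.32, 7.81 and 7.61 on day 2, against 8.19, 8.32 and 8.71 on day 0, a log2 fold change of -0.83 (adjusted p = 0.176, SE 0.23). Mcm4 was at 9.06, 9.43 and 9.51 on day 2, against 10.01, 9.89 and 9.86 on day 0, and the 3 untreated samples lay close together. Its log2 fold change was -0.59 (adjusted p = 0.107, SE 0.14). Mcm6 was at 9.27, 9.50 and 9.39 on day 2, against 9.84, 10.10 and 10.20 on day 0, again without overlap. The remaining ring subunits were nearer to overlap. Mcm5 reached 10.28 on day 2, against a lowest day 0 sample of 10.32, and Mcm2 reached 7.71 on day 2, above the lowest day 0 sample of 7.57.

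The loading factors and the later factors lay the same way. Cdc6, which recruits the ring together with Cdt1, was at 4.95, 4.91 and 5.57 on WT day 2, against 6.15, 6.55 and 6.10 on day 0. Its log2 fold change of -1.12 was the largest of the group but also the least precise (adjusted p = 0.401 in limma, SE 0.44). Cdt1 was at 8.92, 9.07 and 9.11 on day 2, against 9.59, 9.62 and 9.53 on day 0, where both sets of samples were tight and apart. Mcm10 was at 5.85, 5.86 and 5.59 on day 2, against 5.92, 7.23 and 6.91 on day 0, so its day 0 replicate 1 lay next to the treated samples. Pcna had the smallest difference of the group, with 12.14, 12.04 and 12.04 on day 2, against 12.25, 12.60 and 12.36 on day 0 (log2 fold change -0.33, adjusted p = 0.649, SE 0.18).

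The further probe sets of these genes lay the same way, since all 11 that were above background in every sample had a lower mean on WT day 2 than on day 0. One of them, for Mcm7, passed the test at a log2 fold change of -1.03 (adjusted p = 0.0348 in limma, SE 0.17), although the one that stands for the gene did not. The other probe set of Mcm5 above background had -1.23 (adjusted p = 0.247, SE 0.39), more than the -0.58 of the one that stands for it.

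**Figure D1:**
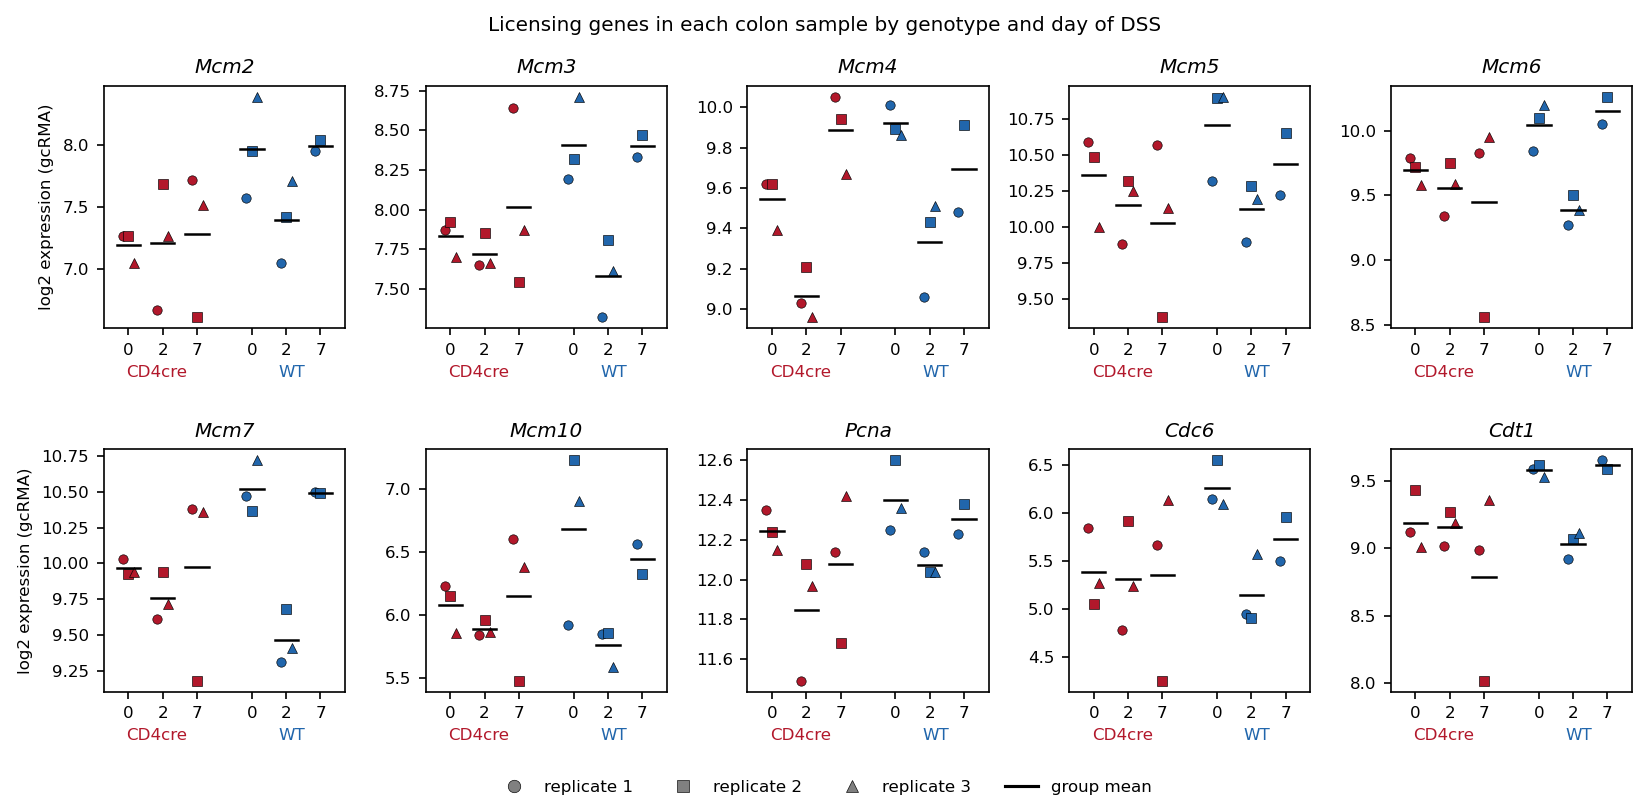
Log2 expression (gcRMA) of the 10 licensing genes in each of the 17 colon samples, by day of DSS in CD4cre mice (red) and WT mice (blue). Marker shapes are replicate numbers, which were not taken to pair samples across groups, and lines are group means. In WT the day 2 samples lie below the day 0 samples for 9 of the 10 genes, and in CD4cre on day 7 replicate 2 is the lowest of its group for all genes but Mcm4.

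The choice of samples moved these calls. Without CD4cre day 7 replicate 2, which is in neither group but adds to the shared estimate of spread, Mcm6, Mcm7 and Cdt1 passed in WT on day 2 (adjusted p = 0.0255, 0.00303 and 0.0478 in limma), and with weights on the arrays by quality 6 genes did, in a fit where 1 of the 3 WT day 0 arrays carried most of the weight. With the Hox score as a covariate none passed and the median was -0.47.

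The wider replication machinery of WT mice on day 2 was read from fixed lists of genes. Of 19 measured genes of mitosis, 7 fell and none rose, with a median log2 fold change of -1.81. The largest falls were those of Ttk, a kinase of the spindle checkpoint (-2.67, adjusted p = 0.0361 in limma, SE 0.46), and of the centromere proteins Cenpf (-2.63) and Cenpe (-2.52). Of 23 origin recognition and licensing partners, such as the origin recognition complex, geminin, Cdc45 and the GINS subunits, none passed the adjusted test, with a median of -0.32 and 8 lower at an unadjusted p under 0.05. Of 26 genes of the replication fork 1 fell, the polymerase delta subunit Pold3 (-0.56, adjusted p = 0.0496, SE 0.11), with a median of -0.56 and 13 lower at an unadjusted p under 0.05. Of 20 genes of the G1 to S control 1 fell, E2f7, a repressor of the E2F family (-1.13, adjusted p = 0.0201, SE 0.16), which was below the background level in all 3 samples of day 2, so that its fold is not measured on both sides. Of 9 genes of nucleotide supply none passed, with a median of -0.22, and of 12 cell cycle inhibitors 1 fell, Cdkn2d (-0.41, adjusted p = 0.0496, SE 0.08).

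Markers of other cells also differed between these samples. Of 11 measured genes of the crypt base and stem cells, Axin2 fell (-1.66, adjusted p = 0.0201 in limma, SE 0.24), and the mean over the list was 6.45 to 6.69 on day 2, against 7.12 to 7.76 on day 0. Of 10 measured genes of B cells, Ms4a1 (2.71) and Cd79b (2.62) rose, and the mean over the list was 3.49 to 3.91 on day 2, against 2.85 to 2.96 on day 0. Only 4 of these 10 genes had a mean above background, and the day 0 means over the list lay below it. Of 11 genes of monocytes and macrophages none passed and 10 were above 0, 5 of them higher at an unadjusted p under 0.05, and the mean over the list was 7.83 to 8.28 on day 2, against 7.35 to 7.55 on day 0. The mean over the 16 epithelial markers was 13.23 to 13.40 on day 2, against 12.77 to 13.46 on day 0. The part of these cells, and of the position along the colon that the Hox score reads, in the lower values of the licensing genes was not tested beyond the covariate given above.

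By day 7 of DSS the WT samples were back near their untreated level. The 10 genes had a median log2 fold change of -0.06 between day 7 and day 0, with a range of -0.53 to 0.11, and none passed an adjusted p under 0.05 in limma (0.0866% of all probe sets) or an unadjusted one. Cdc6 was the only gene whose 2 samples on day 7, at 5.50 and 5.96, lay below all 3 on day 0, at 6.15, 6.55 and 6.10, against 35.8% of all probe sets that were lower without overlap and 14.3% of those above background. Set against day 2, all 10 genes had higher means on day 7, with a median of 0.60 and a range of 0.24 to 1.03, against a median of 0.03 over probe sets above background. Means were higher in 37% of all probe sets and in 55.1% of those above background. None passed an adjusted p under 0.05 (0.244% of all probe sets). At an unadjusted p under 0.05, Mcm3, Mcm4, Mcm6 and Mcm7 were higher, against 5.87% of all probe sets and 10% of those above background, and 7 genes did not overlap, against 14.6% and 26.1%. The WT day 2 samples enter both this comparison and that of day 2 against day 0. The lower values on day 2 and the higher values on day 7 are therefore not independent of each other.

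Mcm7 had the largest difference of the group here, at 10.50 and 10.49 on WT day 7, against 9.31, 9.68 and 9.41 on day 2 (log2 fold change 1.03, adjusted p = 0.189 in limma, SE 0.28). Cdt1 was at 9.65 and 9.59 on day 7, against 8.92, 9.07 and 9.11 on day 2, and Mcm6 was at 10.05 and 10.26, against 9.27, 9.50 and 9.39. For these genes every day 7 sample was above every day 2 sample. In the same comparison none of the 19 genes of mitosis passed and all had a positive log2 fold change, with a median of 0.97, and the mean over them was 7.25 to 7.60 on day 7, against 5.99 to 6.74 on day 2. The crypt base genes moved the same way, with a median of 1.27 and 7 of 11 higher at an unadjusted p under 0.05 but none past the adjusted test, and the mean over the list was 7.75 to 7.83 on day 7, against 6.45 to 6.69 on day 2. The mean over the epithelial markers was 12.73 to 12.84 on day 7, against 13.23 to 13.40 on day 2, and neither list overlapped. The part of these cells in the higher values of the licensing genes was not tested. Against day 0 the genes of mitosis had a median of -0.79 on day 7, with all 19 below 0, where the licensing genes had one of -0.06; the difference between the lists was not tested. The Hox score was -0.19 and -0.13 on WT day 7, against 1.36, 1.31 and 1.17 on day 2, without overlap. With it as a covariate the median of the licensing genes was 0.08 in place of 0.60, and Mcm2, Pcna, Cdc6 and Cdt1 had negative values.

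In untreated mice the genes were lower in CD4cre than in WT samples. All 10 had a lower mean in CD4cre on day 0, with log2 fold changes between -0.88 and -0.16 and a median of -0.47, against 0.02 over the probe sets above background, whose 5th to 95th percentile ran from -0.38 to 0.48. Means were lower in 65.8% of all probe sets and in 46.6% of those above background. No gene passed an adjusted p under 0.05 in limma (adjusted p = 0.967 for all 10), where 0.00666% of all probe sets did. At an unadjusted p under 0.05, Mcm2, Mcm3, Mcm4 and Mcm7 were lower, against 2.06% of all probe sets and 2.79% of those above background. The genotypes did not overlap for 7 genes (Mcm2, Mcm3, Mcm4, Mcm6, Mcm7, Cdc6 and Cdt1), against 7.97% of all probe sets that were lower without overlap and 6.61% of those above background.

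Mcm7 was at 10.03, 9.93 and 9.94 in CD4cre on day 0, against 10.47, 10.37 and 10.72 in WT (log2 fold change -0.56, SE 0.25). Mcm2 was at 7.27, 7.27 and 7.05 in CD4cre, against 7.57, 7.95 and 8.39 in WT (-0.78, SE 0.32), and the WT samples were the more spread. Cdc6 was at 5.85, 5.05 and 5.27 in CD4cre, against 6.15, 6.55 and 6.10 in WT (-0.88, SE 0.44), a 1.84-fold lower level. Cdt1 was at 9.12, 9.43 and 9.01 in CD4cre, against 9.59, 9.62 and 9.53 in WT. Pcna overlapped, at 12.35, 12.24 and 12.15 in CD4cre, against 12.25, 12.60 and 12.36 in WT, and so did Mcm5 and Mcm10. The WT day 0 samples are also the reference of the DSS effect in WT, so the lower CD4cre values and the lower WT values on day 2 are not independent of each other.

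Other genes of division lay the same way on day 0. None of 19 genes of mitosis passed the adjusted test between CD4cre and WT, but all 19 were below 0, with a median of -0.79 and 10 lower at an unadjusted p under 0.05. Likewise all 26 genes of the replication fork were below 0, with a median of -0.36 and 7 lower at an unadjusted p under 0.05. The genes of the crypt base had a median of 0.05, and the mean over the list was 7.25 to 7.68 in CD4cre, against 7.12 to 7.76 in WT. The Hox score was 0.80, 0.60 and -0.10 in CD4cre, against 0.05, 0.70 and 0.05 in WT, so the genotypes overlapped in it. With weights on the arrays 5 licensing genes passed between the genotypes on day 0, when 8408 probe sets did in place of 3, and Mcm5 and Mcm10 had positive values. The weight was 16.6 for replicate 1 of WT day 0, against 0.664 and 0.318 for replicates 2 and 3, so the weighted WT day 0 level came almost from a single array.

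**Figure D2:**
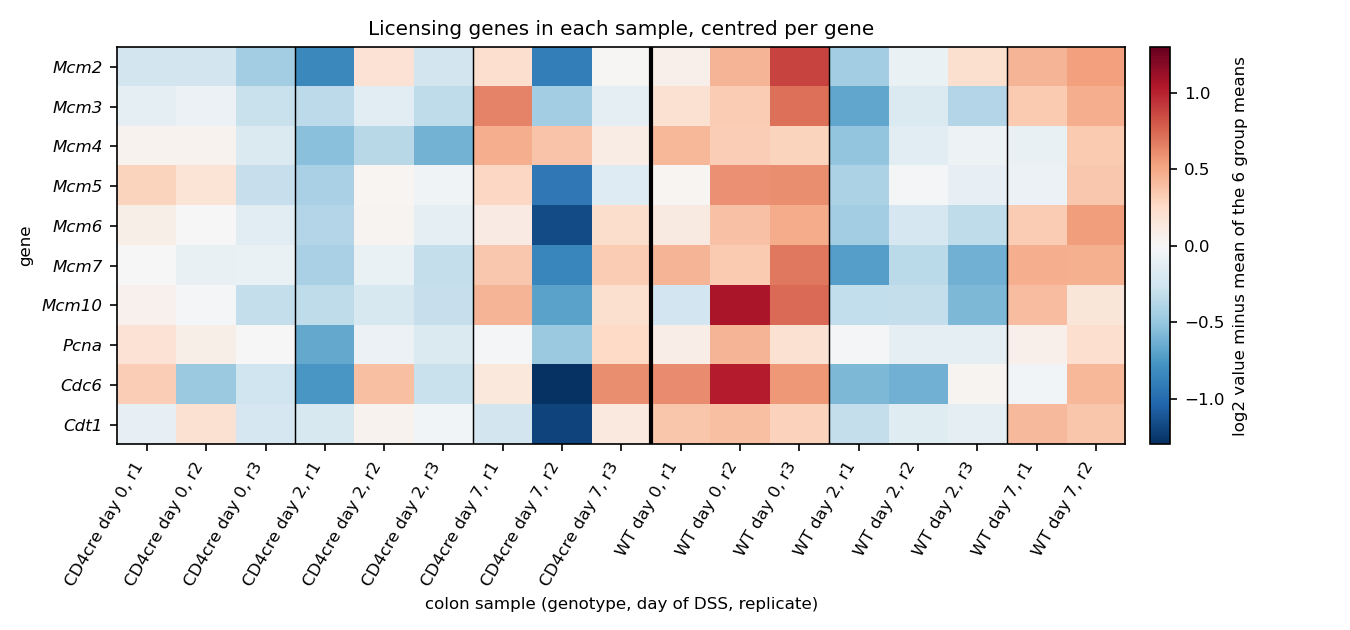
Log2 value of each licensing gene (rows) in each sample (columns), minus the mean of the gene's 6 group means, with CD4cre on the left and WT on the right of the thick line. The WT day 0 and day 7 columns are mostly above 0 and the WT day 2 columns mostly below it, and CD4cre day 7 replicate 2 is below 0 for every gene but Mcm4.

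In CD4cre mice the licensing genes had a median log2 fold change of -0.16 between days 2 and 0, with a range of -0.48 to 0.01. The median was -0.07 without replicate 1 of day 2 and -0.26 without replicate 2 of day 2. No gene passed an adjusted p under 0.05 in limma (0.0178% of all probe sets). Mcm4 and Pcna were lower at an unadjusted p under 0.05, against 3.32% of all probe sets and 5.05% of those above background, and these were the genes without overlap, against 15.6% and 9.2%. Mcm4 was at 9.03, 9.21 and 8.96 in CD4cre on day 2, against 9.62, 9.62 and 9.39 on day 0 (log2 fold change -0.48, adjusted p = 0.434, SE 0.14). Pcna was at 11.49, 12.08 and 11.97 on day 2, against 12.35, 12.24 and 12.15 on day 0 (-0.40, adjusted p = 0.749, SE 0.18), where the lowest sample, replicate 1, is one of those with pancreatic transcripts. The genes of mitosis had a median of -1.09 in the same samples, with all 19 below 0 and 18 lower at an unadjusted p under 0.05, though none passed the adjusted test. Their mean was 5.98 to 6.66 in CD4cre on day 2, against 6.92 to 7.85 on day 0. The crypt base genes lay the same way, with a median of -0.35 and 10 of 11 below 0. Of these, 4 were lower at an unadjusted p under 0.05. The mean over their list was 6.73 to 7.26 on day 2, against 7.25 to 7.68 on day 0. Markers of fibroblasts and of macrophages lay the other way. All 12 genes of fibroblasts and matrix were above 0, with a median of 0.55, and the mean over them was 10.88 to 11.23 on day 2, against 10.45 to 10.63 on day 0. The mean over the genes of monocytes and macrophages was 7.57 to 7.99 on day 2, against 7.22 to 7.37 on day 0, and neither list overlapped, though no gene of either passed the adjusted test. The part of these cells in the values of the licensing genes was not tested.

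The difference of the day 2 DSS effects, CD4cre minus WT, was tested itself. It was above 0 for 9 of the 10 genes, against 49.5% of all probe sets and 52.7% of those above background, with a median of 0.55, and for Cdc6 it was 1.05 (SE 0.62, 95% interval -0.31 to 2.40) and for Mcm7 0.85 (SE 0.36, 95% interval 0.07 to 1.63). The adjusted p was 1 for all 10 genes (0.00222% of all probe sets passed), so a difference between the genotypes in this response was not shown. On day 2 itself the licensing genes were close between the genotypes, with a median of 0.13 for CD4cre against WT and a range of -0.27 to 0.29. No gene passed an adjusted p under 0.05 (0.0422% of all probe sets) or an unadjusted one, and the samples of all 10 genes overlapped. For Mcm7 on day 2, the samples were at 9.61, 9.94 and 9.72 in CD4cre, against 9.31, 9.68 and 9.41 in WT. These groups were not alike in other traits. The Hox score was 1.06, 0.73 and 0.49 in CD4cre on day 2, against 1.36, 1.31 and 1.17 in WT, without overlap. The mean over the B cell genes was 2.79 to 2.91 in CD4cre, against 3.49 to 3.91 in WT. Their part in the licensing values was not tested beyond the alternatives with the Hox score as a covariate.

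On day 7 of DSS the CD4cre samples spread widely. Over the 10 genes the median of the values centred per gene was 0.24 in replicate 1, -0.88 in replicate 2 and 0.17 in replicate 3, so replicate 2 lay far below the other samples of its group. Cdc6 was at 5.67, 4.25 and 6.14, Cdt1 at 8.99, 8.02 and 9.36, Mcm6 at 9.83, 8.56 and 9.95 and Mcm7 at 10.38, 9.18 and 10.36 in these samples. Replicate 2 was the lowest sample of the group for 9 genes and had the lowest value of all 17 samples for Cdc6, Cdt1, Mcm5, Mcm6, Mcm7, Mcm10 and Mcm2. The exception was Mcm4, at 10.05, 9.94 and 9.67.

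The same replicate 2 was highest for markers of other cells. The mean over 12 genes of fibroblasts and matrix was 12.54 in it, against 11.33 and 11.35 in replicates 1 and 3, that of 11 genes of monocytes and macrophages was 10.23, against at most 9.13 in the others, and that of 11 neutrophil genes was 5.90, against 4.85 and 4.45. The mean over the epithelial markers ranged from 12.98 to 13.19 in the group. The mean over the 19 genes of mitosis was 6.21 in replicate 2, against 7.40 and 7.13. The Hox score was 0.70 in replicate 2, against -0.03 and -0.17. The part of these cells, and of the position along the colon, in the lower licensing genes of this sample was not tested.

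Against this spread, Mcm4 was the only gene of the group that passed in any of the 11 comparisons. It rose in CD4cre on day 7, to 10.05, 9.94 and 9.67, against 9.03, 9.21 and 8.96 on day 2. The lowest day 7 sample was above the highest day 2 sample, and the log2 fold change was 0.82 (adjusted p = 0.00771 in limma, SE 0.14, n = 3 and 3), a 1.77-fold rise. This is 1 gene of 10, where 5.42% of all probe sets passed and 2.49% passed as higher. Without overlap, likewise, only Mcm4 was higher, against 6.93% of all probe sets and 11.4% of those above background. The other 9 genes had log2 fold changes of -0.37 to 0.30 between days 7 and 2, and the median of all 10 was 0.14. This median was 0.49 without replicate 2 of day 7, -0.07 without replicate 1 of day 2 and -0.06 without replicate 1 of day 7, and -0.16 with the Hox score as a covariate, so its sign was not stable.

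Markers of other cells moved in the same comparison. Between days 7 and 2 in CD4cre mice, 9 of 11 genes of monocytes and macrophages rose, led by Ccr2 (2.82, adjusted p = 0.00947 in limma, SE 0.51), and so did the neutrophil genes S100a8, S100a9 and Lcn2 out of 11 and Col3a1 (1.06), Pdgfra (0.98) and Dcn (0.86) out of 12 genes of fibroblasts and matrix. The keratins Krt18 (-0.99) and Krt19 (-0.53) of the 16 epithelial markers fell, as did Actg2 and Smtn (-0.77) of 10 genes of smooth muscle. The mean over the genes of monocytes and macrophages reached 10.23 on day 7, against at most 7.99 on day 2, and that of neutrophils was 4.45 to 5.90, against at most 3.02. Of the 11 neutrophil genes 6 had a mean above background, and the day 2 means over that list lay below the background level of 3.38. The part of these cells in the rise of Mcm4 was not tested.

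The second probe set of Mcm4 had a log2 fold change of 0.46 between days 7 and 2 (adjusted p = 0.0551 in limma, SE 0.13), short of the threshold. A probe set of Mcm3 that does not stand for the gene passed (0.90, adjusted p = 0.0368, SE 0.22), while the one that does had 0.30 (adjusted p = 0.568, SE 0.23). The rise of Mcm4 did not pass in a fit of only the groups compared (adjusted p = 0.142) or without the samples with pancreatic transcripts (0.80, adjusted p = 0.0509), and passed in 25 of 27 alternatives. Without replicate 2 of day 7, Mcm7 passed as well (0.61, adjusted p = 0.0191).

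Against untreated CD4cre samples, no gene passed on day 7 (6.74% of all probe sets did). The median log2 fold change was -0.01 and the range -0.40 to 0.35, and without replicate 2 the median was 0.36. Mcm4 was higher at an unadjusted p under 0.05, against 9.47% of all probe sets and 15.7% of those above background. It was at 10.05, 9.94 and 9.67 on day 7, against 9.62, 9.62 and 9.39 on day 0 (log2 fold change 0.35, adjusted p = 0.181 in limma, SE 0.14). These samples did not overlap, against 8.63% of all probe sets that were higher without overlap and 14.6% of those above background. This is 1 gene of 10, near these shares. The 11 genes of monocytes and macrophages all rose, such as Cd68 (3.45) and Ccr2 (3.41), and of 12 genes of fibroblasts and matrix 7 rose, led by Col1a1 (1.77). The genes of mitosis had a median of -0.48, and 1 fell, Aurkb, a kinase of chromosome segregation (-1.42, adjusted p = 0.0291, SE 0.34). Of the crypt base genes 4 fell, led by the stem cell receptor Lgr5 (-3.28, adjusted p = 0.00766 in limma, SE 0.59). Lgr5 was above background in 15 of the 17 samples, with a lowest value of 2.69, so its fold may not be measured on both sides.

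Among the partners of licensing, few genes moved in CD4cre mice. Of all probe sets, 5.42% passed between days 7 and 2 and 6.74% between days 7 and 0. A call of 1 gene in a list of 23 or 26 is near these shares. Between days 7 and 2, Cdc7, the kinase that fires licensed origins, rose (log2 fold change 1.40, adjusted p = 0.0451 in limma, SE 0.36), as 1 of 23 genes of its list. Prim2, a primase subunit, rose as 1 of 26 genes of the fork (0.67, adjusted p = 0.0384, SE 0.17). Ctps, which makes CTP, rose as 1 of 9 genes of nucleotide supply (1.91, adjusted p = 0.0115, SE 0.36). In the G1 to S list Rb1, the retinoblastoma protein that restrains E2F, fell (-0.49, adjusted p = 0.0147, SE 0.10), and among inhibitors Cdkn2d (0.65) and Btg2 (0.56) rose. Between days 7 and 0, Rfc4, a subunit of the loader of Pcna, fell (-0.99, adjusted p = 0.0435, SE 0.26). Of the 9 genes of nucleotide supply, Ctps rose (2.19, adjusted p = 0.00543, SE 0.36) and Shmt1, an enzyme of one-carbon metabolism, fell (-1.39, adjusted p = 0.0294, SE 0.33). Rb1 fell here too (-0.37, adjusted p = 0.0435), and the inhibitor Gadd45b rose (1.08, adjusted p = 0.0269).

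**Figure D3:**
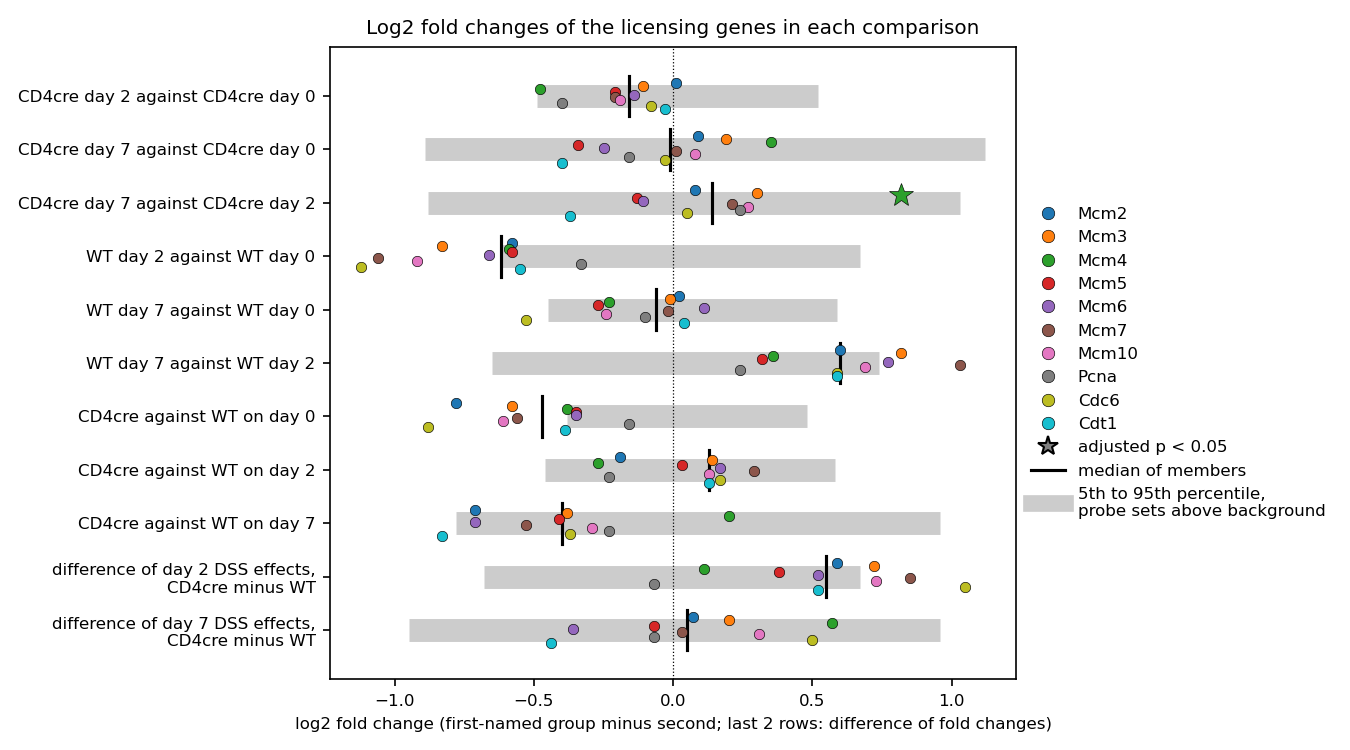
Log2 fold changes of the 10 licensing genes (points) in the 11 comparisons, each read as the first-named group minus the second. Black lines are the medians of the 10 genes and grey bars span the 5th to the 95th percentile of the 22762 probe sets above background; the star is Mcm4 in CD4cre on day 7 against day 2 (0.82), the only gene past an adjusted p of 0.05.

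Between the genotypes on day 7 the median log2 fold change, CD4cre against WT, was -0.40, with a range of -0.83 to 0.20. No gene passed an adjusted p under 0.05 in limma, where 1.51% of all probe sets did. Mcm6 and Cdt1 were lower at an unadjusted p under 0.05, against 8.65% of all probe sets and 14.7% of those above background. The genotypes did not overlap for Mcm2, Mcm6, Mcm7 and Cdt1, against 19.6% and 22.4%. Cdt1 was at 8.99, 8.02 and 9.36 in CD4cre, against 9.65 and 9.59 in WT (-0.83, adjusted p = 0.171, SE 0.28). A further probe set of Cdt1 passed (-0.94, adjusted p = 0.0289, SE 0.18). Mcm6 was at 9.83, 8.56 and 9.95 in CD4cre, against 10.05 and 10.26 in WT (-0.71, adjusted p = 0.31, SE 0.31), and Mcm2 at 7.72, 6.61 and 7.52, against 7.95 and 8.04. Replicate 2 was the lowest CD4cre sample for each of these genes, and without it the median of the 10 genes was -0.11.

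Of the 11 crypt base genes, 2 markers of stem cells fell in CD4cre against WT on that day, namely Lgr5 (log2 fold change -3.77, adjusted p = 0.0221 in limma, SE 0.66) and Ascl2 (-2.44, adjusted p = 0.0424, SE 0.51). Over all samples Lgr5 reached down to 2.69 and Ascl2 to 3.33, below the background level of 3.38. The folds of these genes may therefore not be measured on both sides. None of the 19 genes of mitosis or of the 26 genes of the fork passed, with medians of -0.39 and -0.42. The neutrophil genes S100a9 (4.86, adjusted p = 0.00234, SE 0.55) and S100a8 (4.39) and the macrophage receptor Fcgr1 (2.31, adjusted p = 0.0172, SE 0.38) rose. At an unadjusted p under 0.05, 10 of 11 genes of monocytes and macrophages and 9 of 12 of fibroblasts and matrix were higher, and the part of these cells in the values of the licensing genes was not tested. The difference of the day 7 DSS effects, CD4cre minus WT, had a median of 0.05 over the licensing genes, and none passed (0.14% of all probe sets did). This median was 0.42 without CD4cre day 7 replicate 2 and -0.13 without CD4cre day 7 replicate 1. The difference was largest for Mcm4, at 0.57 (adjusted p = 0.364 in limma). The second probe set of Mcm4 had 0.25 in CD4cre and 0.01 in WT between days 7 and 0. Between the genotypes on day 7 that probe set had -0.09, against 0.20 for the one that stands for the gene.

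**Figure D4:**
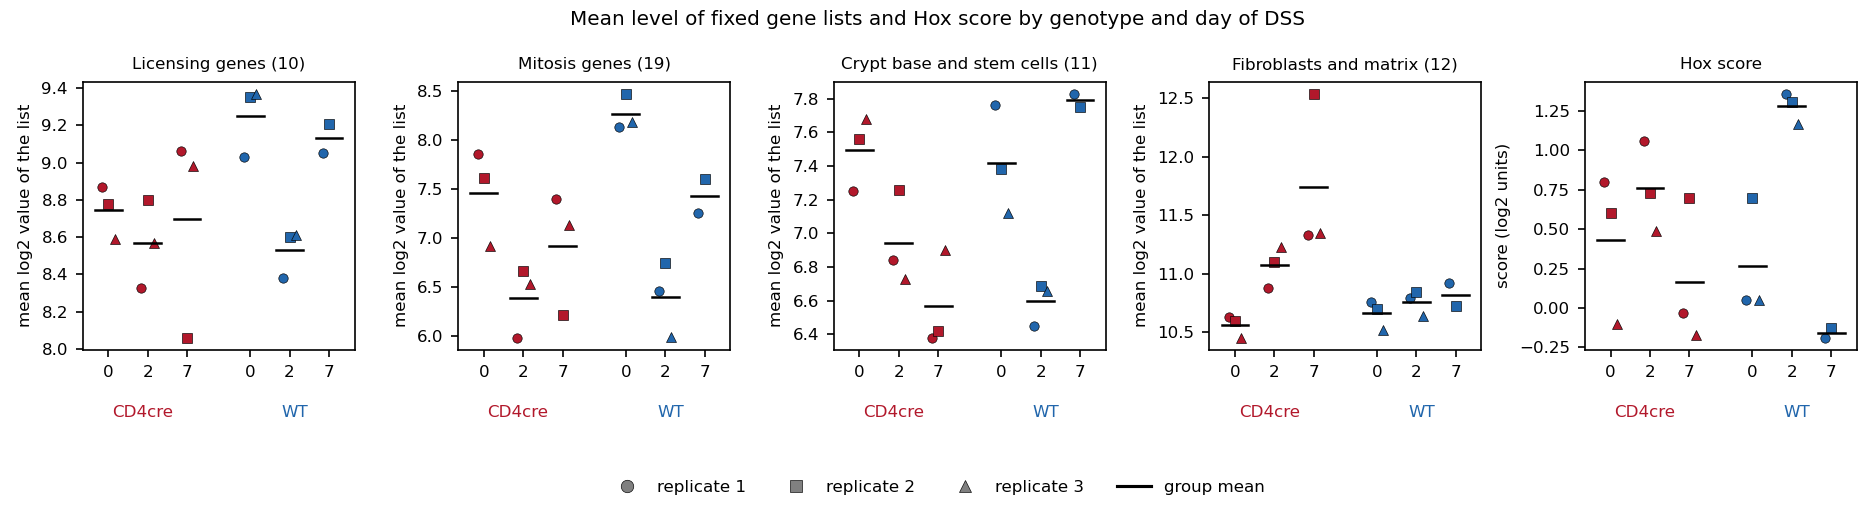
Mean log2 value of 4 fixed gene lists and the Hox score in each sample, by day of DSS in CD4cre (red) and WT (blue), with group means as lines and the number of measured genes in brackets. The mean of the licensing genes is 8.38 to 8.61 in WT on day 2, against 9.03 to 9.37 in WT on day 0, and in CD4cre day 7 replicate 2 the mean of fibroblast and matrix genes is 12.54, the highest of all samples.

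Over the 6 groups the genes were read against a median profile. The profile comes from these same 10 genes, so closeness to it does not test whether they share it. The median of the centred values had an SD of 0.30 between samples within groups. Centred on each gene's own mean, the median of the 10 genes was -0.05, -0.27 and -0.13 in CD4cre on days 0, 2 and 7 and 0.41, -0.28 and 0.33 in WT on the same days. Mcm10 followed this profile most closely, with a root mean square difference of 0.085, and Mcm4 least, with 0.225. In Mcm4 the profile in CD4cre was -0.03, -0.51 and 0.31 on days 0, 2 and 7. In Cdt1 it was -0.04, -0.07 and -0.44, so that the day 7 means of these genes lay on opposite sides of 0. The Cdt1 samples were at 8.99, 8.02 and 9.36 in CD4cre on day 7, against 9.12, 9.43 and 9.01 on day 0. Its low day 7 mean thus leaned on replicate 2. Neither gene passed the adjusted test between days 7 and 0 in CD4cre (adjusted p = 0.326 for Cdt1 and 0.181 for Mcm4 in limma). The order of the group means for Mcm7 was WT day 0, WT day 7, CD4cre day 7, CD4cre day 0, CD4cre day 2 and WT day 2, and neighbours in this order overlapped except WT day 7 and CD4cre day 7.

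Among 11547 other genes above background, the 10 whose group means lay closest to the median profile of the licensing genes were Farsb, Ezh2, Gtf2b, Shmt2, Tmem54, Fam122b, Rrm1, Dhrs7b, Nudt1 and Atp13a3. The root mean square difference was 0.042 for Farsb, a subunit of phenylalanine tRNA synthetase, 0.061 for Ezh2, a histone methyltransferase, and 0.075 for Rrm1, a subunit of the ribonucleotide reductase that supplies deoxynucleotides. The last of the 10, Atp13a3, was at 0.082, closer to the profile than Mcm10, the closest licensing gene, at 0.085. Rrm1 was at 0.02, -0.24 and -0.05 in CD4cre on days 0, 2 and 7 and at 0.41, -0.33 and 0.19 in WT on the same days, relative to its own mean. The likeness is over 6 group means that share arrays, and it is a description.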

How the data were processed

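Total RNA of colonic mucosa was hybridized to 17 Affymetrix mouse expression arrays. Per the submitters' processing notes and the study's methods, the authors used R 2.9.0 with affy and gcRMA for background adjustment, normalization and summarization, so the deposited values are on the log2 scale. Of 45101 probe sets, 64 are controls and 45037 were tested, without a filter. Gene symbols came from the platform's annotation: 34945 probe sets carry 1 gene, 932 several and 9160 none.

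A model of 6 group means over all samples was fitted in R 4.3.3 with limma 3.58.1, with 11 residual and 0.888 prior degrees of freedom after empirical Bayes moderation. Calls were two-sided at an adjusted p under 0.05 (Benjamini-Hochberg over all probe sets within each of 11 comparisons), and the fit was tested on simulated data. Members, lists, tests and alternatives were chosen with earlier results of these data known. All 10 genes are named, and from every other list up to 3 called genes per comparison with the largest change. Samples do not overlap where every sample of a group lies on 1 side of every sample of the other. Promoter windows came from RefSeq (GRCm38.p6). Alternatives were a fit of fewer groups, other normalizations, array weights, a filter, the replicate block, the Hox score, the mean over probe sets and leaving out samples.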

Additional observations from a re-analysis of the deposited data

How the results depend on the processing

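Limits come from 2 or 3 samples per group and from unequal spread. The number of genes called changed as follows. Mcm4 in CD4cre on day 7 against day 2 was called in 25 of 27 settings (0.64 to 0.93), and the count was 0 when only the compared groups were fitted and 0 without the samples with pancreatic transcripts. With array quality weights 6 genes were called in WT on day 2 against day 0, 3 in WT on day 7 against day 2 and 5 in CD4cre against WT on day 0, where Mcm5 (0.09) and Mcm10 (0.15) changed sign. With the Hox score as a covariate, the sign turned for Mcm7 in CD4cre on day 7 against day 2 (-0.11) and for Mcm2 (-0.12), Pcna (-0.04), Cdc6 (-0.23) and Cdt1 (-0.02) in WT on day 7 against day 2. When each sample was left out in turn, 0 to 3 genes passed in WT on day 2 against day 0, 1 to 2 in CD4cre on day 7 against day 2, 0 to 2 in WT on day 7 against day 2 and 0 to 1 in CD4cre against WT on day 7, where Cdt1 passed without CD4cre day 7 replicate 3 (-1.12, adjusted p = 0.0196 in limma). Mcm3 had -0.01 in CD4cre on day 7 against day 2 without CD4cre day 7 replicate 1, where it had been 0.30, and it ranged from -0.01 to 0.54 over samples left out in turn. The causes were not tested. In every other comparison the count stayed at 0 in all settings. Replicate numbers were not taken to pair the samples. Of 40 correlations of same-numbered samples 15 were over 0.1, from -0.45 to 0.51. Samples with different numbers were not set beside them, so a pairing or shared batch was not tested. With a replicate block Mcm4 was called alone, at 0.82 (adjusted p = 0.013 in limma), and no other call changed. Over all probe sets, the count in WT on day 2 against day 0 was 202, against 3 with the Hox score, 58 when only the compared groups were fitted and 8277 with array weights; in CD4cre on day 7 against day 2 it was 2439, against 10 when only the compared groups were fitted and 3852 with median centring; and in CD4cre against WT on day 0 it was 3, against 8408 with array weights.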
